A study of Homo sapiens with 6 samples.

Results

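The caveolins (CAV1, CAV2 and CAV3), the cavins (CAVIN1, CAVIN2 and CAVIN3) and the ATPase EHD2 build and hold the caveola, and their transcripts were compared between HCCLM3 cells overexpressing the lncRNA LINC00862 and control HCCLM3 cells. These 7 genes were taken by gene name from the 35856 genes of the deposited table. Of the 7, CAV1, CAV2, CAVIN1, CAVIN3 and EHD2 were down-regulated in LINC00862, with fitted decreases that reached 6.07 on the log2 scale for CAV1 (standard error 0.24). CAVIN2 did not pass the test, and CAV3 was too sparse to be tested. Of all tested genes, 29.8% were called lower.

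Caveolae are small flask-shaped pits of the plasma membrane that buffer membrane tension and gather lipids and signalling proteins. Caveolins insert into the membrane as oligomers, cavins assemble on them from the cytosol as a coat, and EHD2 forms a ring at the neck that holds the pit at the surface. Endothelial cells, adipocytes, fibroblasts and muscle are rich in caveolae, whereas normal hepatocytes have few.

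HCCLM3 is a metastatic line of human hepatocellular carcinoma. The Empty group (NC in the sample labels) had received the vector without an insert, and the LINC00862 group had received it with LINC00862, which the methods place in pcDNA3.1. Each group had 3 libraries of polyadenylated RNA. Neither the labels nor the methods state whether the libraries came from separate cultures, whether the cells were a single clone, or when RNA was taken, so p-values measure the spread between these libraries only. The total count lay between 58241123 and 68229070 per library. LINC00862 itself had 11, 21 and 6 counts in Empty and 145, 121 and 76 counts in LINC00862 (libraries 1, 2 and 3), higher in every library labelled as overexpressing it. Of all genes, 20741 passed the filter on low counts and entered edgeR's quasi-likelihood test. Of these, 64.2% had an adjusted p under 0.05, with 29.8% lower and 34.4% higher in LINC00862. The LINC00862 transcript had a log2 fold change of 3.22 (standard error 0.53), from a mean of 0.0507 to 0.449 FPKM. A lower fitted value than that of LINC00862 was found for 85.5% of the tested genes. For 71.1% of the tested genes FPKM did not overlap between the groups. The deposited FPKM summed to 296336 to 354830 per Empty library and 420733 to 512467 per LINC00862 library. Hepatocyte markers also differed, with a summed level of 2.94 to 3.46 FPKM in Empty and 538.6 to 617.8 FPKM in LINC00862. Most of the LINC00862 sum was FGB, with a mean of 550.4 FPKM, while albumin (ALB) had 1.51 FPKM. Of 7 tested hepatocyte markers, 6 were higher and 1 was lower in LINC00862. Libraries of both groups are bulk RNA, so fewer cells with a transcript and less transcript per cell cannot be told apart.

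CAV1 (ENSG00000105974) encodes caveolin-1, without which most cells outside muscle form no caveolae. Empty replicates 1, 2 and 3 held 124.2, 94.3 and 106.1 FPKM of it, and LINC00862 replicates 1, 2 and 3 held 1.09, 1.87 and 1.28 FPKM. FPKM counts fragments relative to transcript length and to the mapped fragments of the library, so it can be set side by side between genes. All 3 LINC00862 libraries lay far below all 3 Empty libraries. Mean FPKM fell 76.4-fold, from 108.2 ± 15.0 to 1.42 ± 0.406 (SD, n = 3 each), which left 1.31% of the Empty level. The counts behind these levels were 23810 to 31780 in Empty and 324 to 482 in LINC00862. With counts scaled by the trimmed mean of M values (TMM), edgeR estimated a log2 fold change of -6.07 with a standard error of 0.24 (adjusted p = 1.32e-07). Only 1.83% of the tested genes had a lower fitted value than CAV1.

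CAV2 (ENSG00000105971) encodes caveolin-2, which oligomerises with caveolin-1 and depends on it to leave the Golgi. Its level was 16.5, 14.3 and 13.5 FPKM in Empty and 0.673, 0.782 and 0.647 FPKM in LINC00862. Both groups were tight and did not overlap. Its mean was 21.1-fold lower in LINC00862, and edgeR's log2 fold change of -4.22 had a standard error of 0.15 (adjusted p = 7.74e-08). CAV2 was scarcer than CAV1 in every library of both groups, although the decrease of CAV1 was larger.

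CAV3 (ENSG00000182533), the caveolin of skeletal and cardiac muscle, had 3, 7 and 0 counts in Empty and 0 counts in each LINC00862 library. A count of 0 allows up to 3 counts in a library, as a limit of counting error only. Only Empty replicate 2 lay above this limit, and the Empty libraries spread from 0 to 7 counts. These counts do not settle whether CAV3 differed. The deposited table lists a single transcript for CAV3, of the type processed transcript, and no protein-coding one. The gene overlaps RAD18, SSUH2 and OXTR on the opposite strand. The libraries were strand-specific (the dUTP method), but whether the counting used the strand is not given in the sources used here. With every gene of at least 1 count kept in edgeR's test, its adjusted p was 0.151.

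**Figure D1:**
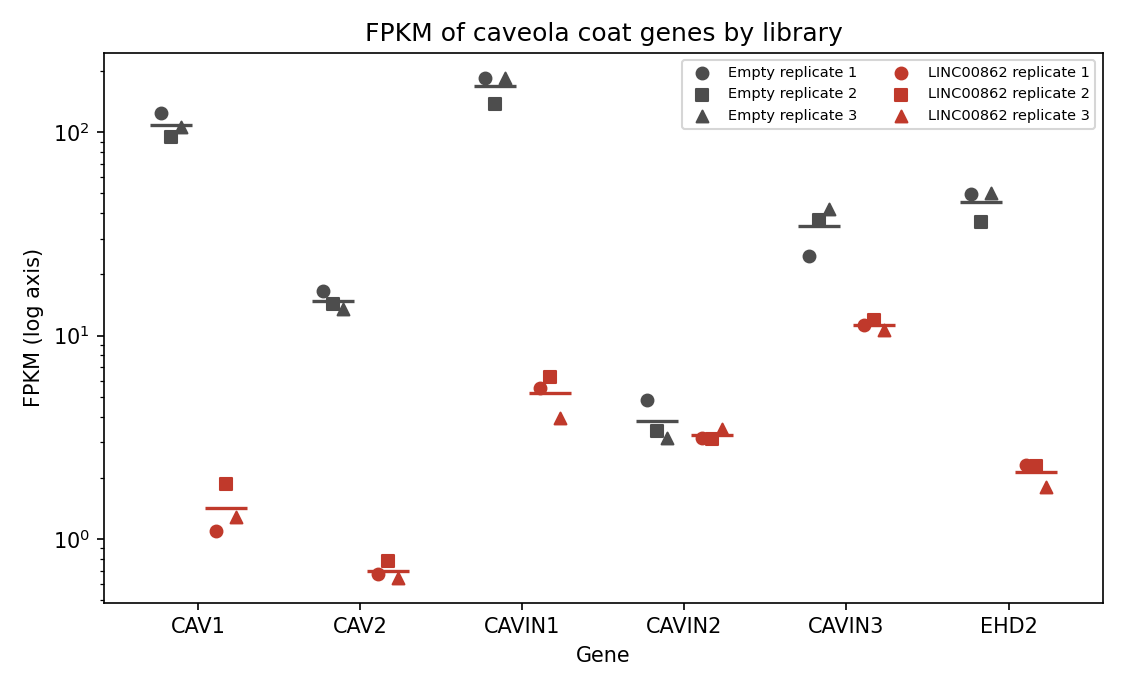
FPKM (log axis) of the 6 genes with values above 0 in every library, with grey for Empty and red for LINC00862, a symbol for each replicate and a bar for the group mean (n = 3 each). CAV1, CAV2, CAVIN1, CAVIN3 and EHD2 lie lower in all 3 LINC00862 libraries than in any Empty library, whereas the CAVIN2 groups overlap, with Empty from 3.14 to 4.84 FPKM and LINC00862 from 3.11 to 3.49 FPKM. CAV3 is left out because it is listed at 0 in 4 libraries.

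CAVIN1 (ENSG00000177469) encodes the cavin that every caveola coat requires, and it had the highest level of the 7 genes in Empty. Its level was 184.8, 138.3 and 184.6 FPKM in Empty and 5.51, 6.30 and 3.93 FPKM in LINC00862. The lowest Empty library exceeded the highest LINC00862 library many times over. Mean FPKM fell 32.2-fold, from 169.2 ± 26.8 to 5.25 ± 1.20 (SD, n = 3 each). edgeR's log2 fold change of -4.85 had a standard error of 0.21 (adjusted p = 2.31e-07).

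CAVIN3 (ENSG00000170955) encodes a cavin that binds protein kinase C delta and adds to the coat through CAVIN1. Its level was 24.8, 37.0 and 42.1 FPKM in Empty and 11.3, 11.9 and 10.7 FPKM in LINC00862. The groups did not overlap, but Empty replicate 1 lay nearer to the LINC00862 libraries than the other two Empty libraries did. The mean was 3.07-fold lower in LINC00862, with a log2 fold change of -1.46 (standard error 0.23, adjusted p = 0.000449 from edgeR). AC068733 overlaps CAVIN3 on the opposite strand, with 28 to 69 counts in Empty and 111 to 200 in LINC00862, against 1114 to 4372 counts for CAVIN3.

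CAVIN2 (ENSG00000168497) encodes the cavin that binds phosphatidylserine and can bend membrane into tubules. Its level was 4.84, 3.39 and 3.14 FPKM in Empty and 3.14, 3.11 and 3.49 FPKM in LINC00862. The groups overlapped, and Empty replicate 1 was the highest library. The log2 fold change was -0.03, with a 95% interval from -0.49 to 0.42 (adjusted p = 0.902 from edgeR). The sign of this value turned with the scaling, from -0.21 to 0.19 over the alternative fits, and no fit called the gene. The antisense gene CAVIN2-AS1 overlaps CAVIN2 and had 0 counts in each Empty library and 88, 102 and 130 counts in LINC00862, against 628 to 980 counts for CAVIN2 in the 6 libraries. The part of these reads in the CAVIN2 value was not tested.

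EHD2 (ENSG00000024422), the ATPase of the caveolar neck, had 49.9, 36.4 and 50.3 FPKM in Empty and 2.32, 2.30 and 1.80 FPKM in LINC00862. All LINC00862 libraries were below all Empty libraries. Mean FPKM fell 21.3-fold, from 45.5 ± 7.91 to 2.14 ± 0.293 (SD, n = 3 each). The fitted log2 fold change of -4.23 had a standard error of 0.18 and an adjusted p of 2.08e-07 in edgeR. A gene on the same strand, AC010519, overlaps EHD2 and had 11.3 counts on average in Empty and 3.33 in LINC00862.

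Of the 6 tested genes, 5 had an adjusted p under 0.05 and a lower level in LINC00862, and 0 were higher, against 29.8% of all tested genes called lower. In edgeR's test against a fold change of 2 the same 5 genes were called, against 15.4% of the tested genes called lower. The median log2 fold change of the 6 was -4.22, beside 0.11 over all tested genes. The same 5 genes did not overlap in FPKM between the groups, whereas 36.6% of all tested genes were lower in LINC00862 without overlap. An exact two-sided permutation test of the FPKM gave p = 0.1 for each of these 5, the smallest p that 3 libraries against 3 allow, and p = 0.5 for CAVIN2. FPKM was not rescaled by TMM so folds of mean FPKM differ somewhat from the fitted values.

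**Figure D2:**
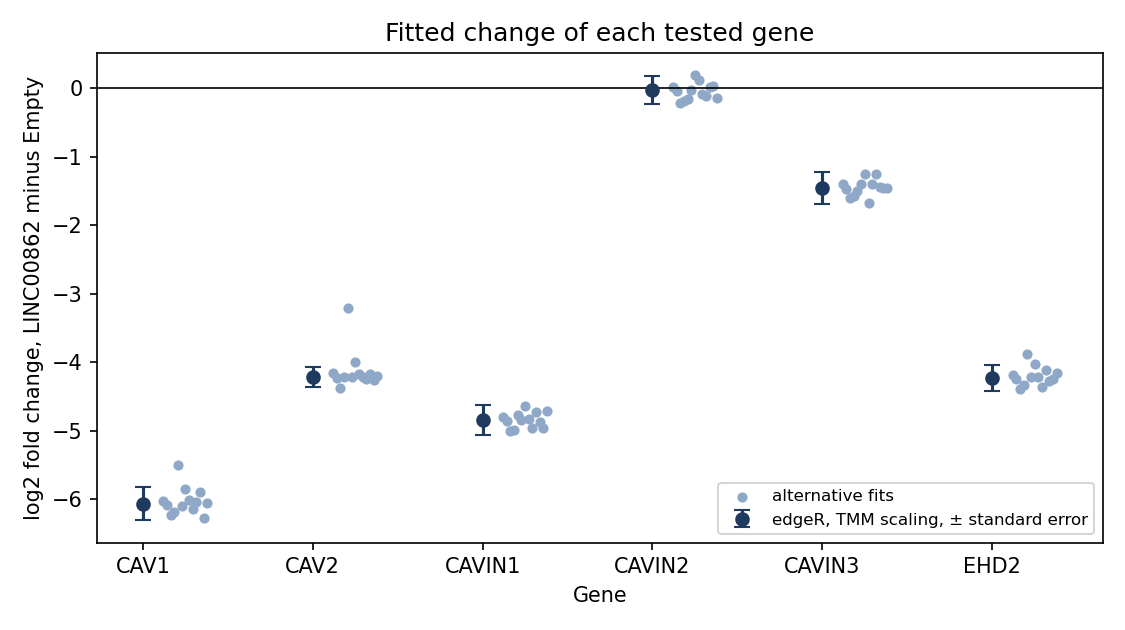
Fitted log2 fold change (LINC00862 minus Empty) of the 6 tested genes from edgeR with its standard error in dark blue, and from the 13 alternative fits in light blue. CAV1 ranges from -6.28 to -5.50 and CAVIN3 from -1.68 to -1.25 over these fits, and CAVIN2 lies on both sides of 0.

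The order of the levels differed between the groups. In Empty the order by FPKM was CAVIN1, CAV1, EHD2, CAVIN3, CAV2, CAVIN2 and CAV3, and EHD2 and CAVIN3 were the only neighbours in that order whose libraries overlapped. In LINC00862 the order was CAVIN3, CAVIN1, CAVIN2, EHD2, CAV1, CAV2 and CAV3, and only EHD2 and CAV1 overlapped. CAVIN1 and CAV1 together led the Empty libraries, with 44.8% and 28.8% of the summed FPKM of the 7 genes on average. In LINC00862 they made up 21.6% and 5.85%, while CAVIN3 made up 47.1% and CAVIN2 13.6%. The summed FPKM of the 7 genes was 323.8 to 405.1 in Empty and 21.8 to 26.3 in LINC00862. Among all listed genes, CAV1 stood at percentile 99.1 of mean FPKM in Empty and at percentile 70.1 in LINC00862.

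Ratios within a library do not depend on how libraries are scaled, and 5 of them were compared. The ratio of CAV1 to CAV2 was 7.51, 6.59 and 7.88 in Empty against 1.62, 2.39 and 1.98 in LINC00862, so the gap between the caveolins was narrower in LINC00862. The difference of the mean log2 ratio (LINC00862 minus Empty) was -1.89. The ratio of CAV1 to CAVIN1 was 0.672, 0.682 and 0.575 in Empty against 0.198, 0.297 and 0.326 in LINC00862, a difference of -1.26 on the log2 scale. Against EHD2 the difference of the log2 ratio of CAV1 was -1.88. CAVIN1 exceeded CAVIN3 by 3.73 to 7.46 times in Empty and was at 0.369 to 0.529 of it in LINC00862, and CAVIN1 exceeded CAVIN2 by 38.2 to 58.8 times in Empty and by 1.13 to 2.02 times in LINC00862. The differences of the log2 ratio were -3.44 for CAVIN1 to CAVIN3 and -4.82 for CAVIN1 to CAVIN2. None of the 5 ratios overlapped between the groups, whereas 71.1% of all tested genes did not overlap in FPKM by themselves. These ratios follow from the FPKM of the single members given above and add no separate evidence. The exact two-sided permutation test gave p = 0.1 for each, both before and after Benjamini-Hochberg adjustment over the 5 ratios, which is the smallest p the design allows and does not pass 0.05.

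Promoter sequence was available for 5 of the 7 genes in RefSeq (GRCh38.p14), and the 250 bases before the annotated start are shown for 3 genes that fell and for CAVIN2, which did not pass the test. For CAV1 and CAV2, which have 3 and 2 annotated starts, the window of the first start is printed. Capitals mark matches on either strand to GGGCGG (the GC box bound by SP1 family factors) or GGAATG (the TEAD motif).
CAV1 (chr7:116524759-116525008, plus strand): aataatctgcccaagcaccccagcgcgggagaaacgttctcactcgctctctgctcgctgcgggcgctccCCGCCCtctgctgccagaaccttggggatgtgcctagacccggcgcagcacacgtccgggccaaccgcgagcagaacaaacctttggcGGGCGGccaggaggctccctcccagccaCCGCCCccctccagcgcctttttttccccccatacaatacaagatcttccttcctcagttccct
CAV2 (chr7:116499488-116499737, plus strand): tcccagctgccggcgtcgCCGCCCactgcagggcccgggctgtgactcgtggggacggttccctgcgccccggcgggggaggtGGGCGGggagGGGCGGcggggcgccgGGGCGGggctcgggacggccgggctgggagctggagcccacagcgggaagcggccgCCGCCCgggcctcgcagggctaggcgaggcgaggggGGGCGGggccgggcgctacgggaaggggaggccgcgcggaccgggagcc
EHD2 (chr19:47713172-47713421, plus strand): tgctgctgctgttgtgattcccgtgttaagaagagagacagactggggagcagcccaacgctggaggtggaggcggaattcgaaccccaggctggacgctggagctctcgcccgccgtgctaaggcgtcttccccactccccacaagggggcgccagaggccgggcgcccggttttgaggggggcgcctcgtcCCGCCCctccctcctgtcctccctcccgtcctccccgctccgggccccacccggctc
CAVIN2 (chr2:191847089-191847338, minus strand): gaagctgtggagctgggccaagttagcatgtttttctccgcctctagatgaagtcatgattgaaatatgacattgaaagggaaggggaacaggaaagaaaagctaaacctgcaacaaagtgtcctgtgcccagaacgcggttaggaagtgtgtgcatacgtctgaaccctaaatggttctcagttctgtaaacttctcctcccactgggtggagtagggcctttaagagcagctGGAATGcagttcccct
The GC box occurred 6 times in the CAV2 window, 3 times in that of CAV1 and 1 time in that of EHD2, and 0 times in those of CAVIN2 and CAV3. It is a common motif, present in 42.6% of the 35116 promoter windows of this length, and 2.22% of them held 6 or more. The second CAV2 start had 3 matches and 70.0% GC, and the third CAV1 start had 2 matches. GGAATG was found in the CAVIN2 window only, against 11.9% of all windows. No window of these 5 genes, other annotated starts of CAV1 and CAV2 included, held TGANTCA (AP-1), CAGGTG (an E-box) or TATAAA, which occurred in 6.57%, 17.5% and 10.7% of all windows. The windows of CAV1, CAV2 and EHD2 had 63.6%, 83.2% and 69.6% GC, against 48% for CAVIN2 and a median of 58% over all windows. A match is a description of these letters and not a site of binding.

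CAV1 and CAV2 are neighbours on the plus strand of chromosome 7. The deposited table places CAV2 at 116287380 to 116508541 and CAV1 at 116525001 to 116561179, 16.5 kb further on, and the submitters' processing notes name hg38. The RefSeq start of CAV2 used above lies inside that span, which also takes in transcripts that start earlier. The nearest tested genes on either side did not share their decrease. TES, which encodes a focal adhesion protein and lies 28.6 kb before CAV2, had a log2 fold change of 0.85 (standard error 0.15, adjusted p = 0.00101 from edgeR), and the receptor tyrosine kinase gene MET, 111.0 kb beyond CAV1, had 0.57 (standard error 0.20, adjusted p = 0.0349). The call of MET was lost in 8 of 13 alternative fits, 4 of which left out a library (Empty replicate 2 or 3, LINC00862 replicate 1 or 2), with values from 0.40 to 0.82. CAPZA2, the next gene after MET, did not pass the test (adjusted p = 0.260).

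The other members lie on other chromosomes. CAVIN1 is on chromosome 17 (42402449 to 42423256, minus strand), CAVIN2 on chromosome 2 (191834310 to 191847088, minus strand), CAVIN3 on chromosome 11 (6318946 to 6320532, minus strand), EHD2 on chromosome 19 (47713422 to 47743134, plus strand) and CAV3 on chromosome 3 (8733802 to 8841808, plus strand). Beside CAVIN1, STAT3 at 14.0 kb was higher in LINC00862 (log2 fold change 0.79, adjusted p = 0.00799 from edgeR), a call lost in 3 of 13 alternative fits. STAT5A beyond it was lower, as CAVIN1 was (-1.71, adjusted p = 0.00118), and so was ATP6V0A1 at 35.6 kb on the other side (-0.53, adjusted p = 0.0461), which lost its call in 10 of 13 alternative fits, among them each fit without a library (adjusted p from 0.0523 to 0.119). Beside EHD2, the ribosome biogenesis gene NOP53 at 2.41 kb was higher (1.21, adjusted p = 0.00124), and BICRA at 10.1 kb was higher too (0.57, adjusted p = 0.0163), a call lost in 5 of 13 alternative fits, with an adjusted p of 0.0536 without LINC00862 replicate 1 and 0.0604 without LINC00862 replicate 3. Taking 2 tested genes on each side of each of the 7 genes gave 24 neighbours that are not members, of which 7 were lower, 10 were higher and 7 did not pass the test, a called share of 70.8% beside 64.2% of all tested genes. Their median log2 fold change was 0.25.

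Likeness was measured as the root mean square difference of centred log2 CPM (counts scaled to library size) over the 6 libraries, and the 3 nearest genes were taken for the 2 members with the highest mean FPKM. Those of CAVIN1 were MCAM, which encodes an adhesion molecule (0.11), FADS2, a fatty acid desaturase gene (0.14), and LOXL1-AS1 (0.16). Those of CAV1 were APOBEC3C, a cytidine deaminase gene (0.13), BAIAP2, a membrane-bending adaptor gene (0.15), and HDGFL3 (0.16). EHD2 ranked 77 and CAV2 ranked 102 in likeness to CAVIN1, and CAVIN1 ranked 272 in likeness to CAV1, among the tested genes. With 2 groups this measure mostly ranks genes by the size of the group difference.

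Outside the coat itself, a list of 10 genes for caveola assembly and the neck had 4 genes lower and 3 higher in LINC00862, with 3 that did not pass the test and a median log2 fold change of -0.47. Its called share of 70.0% stood beside 64.2% over all tested genes (29.8% lower and 34.4% higher). FLNA, the actin crosslinker filamin A that binds caveolin-1, had the largest fall, from 221.1 ± 48.0 to 5.29 ± 1.73 FPKM (SD, n = 3 each), with a log2 fold change of -5.22. EHD1, which works in endosomal recycling, fell by 3.15 on the log2 scale. The muscle cavin gene CAVIN4 had 0.543 FPKM on average in Empty and 0.105 in LINC00862, a log2 fold change of -2.17 at a level far below that of CAVIN1. The PACSIN genes encode F-BAR proteins that curve the membrane of the neck. PACSIN2 rose from 15.3 to 25.6 FPKM (log2 fold change 0.91), and the neuronal PACSIN1 rose from 0.0293 to 1.24 FPKM (5.52). The log2 fold change of DNM2, the dynamin that cuts caveolae and clathrin-coated pits from the surface, was -0.11 (0.11 with upper quartile scaling) and did not pass the test (adjusted p = 0.509 from edgeR).

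Kinases that phosphorylate caveolin-1 and proteins of its turnover had 6 of 8 tested genes lower and 1 higher, with a median log2 fold change of -1.12, beside 29.8% lower and 34.4% higher over all tested genes. The kinase SRC fell from 5.20 to 0.169 FPKM (log2 fold change -4.72) and its relative FYN from 4.27 to 0.198 FPKM (-4.20). The related YES1 was higher, at 9.49 FPKM in Empty and 12.98 in LINC00862 (0.64, adjusted p = 0.0206 from edgeR), a call that was lost in 7 of 13 alternative fits, with an adjusted p of 0.0837 without Empty replicate 2, 0.0573 without Empty replicate 3, 0.0518 without LINC00862 replicate 1 and 0.0742 without LINC00862 replicate 2. VCP and its adaptor UBXN6, which handle ubiquitinated caveolin-1, fell by 1.12 and 0.59 on the log2 scale, and UBXN6 lost its call in 7 of 13 alternative fits, 5 of which left out a library (all but Empty replicate 1), with adjusted p up to 0.122.

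Proteins reported in caveolae had 3 of 9 tested genes lower and 6 higher, with a median log2 fold change of 1.31, where 29.8% of all tested genes were lower and 34.4% higher. The smallest of the 3 falls was that of the HDL receptor gene SCARB1, from 13.7 to 5.36 FPKM (log2 fold change -1.19). The largest was -3.87 on the log2 scale. NOSTRIN, whose product binds endothelial nitric oxide synthase, rose from 0.185 to 8.18 FPKM (5.59), SLC2A4, the insulin-responsive glucose transporter gene, rose from 0.0351 to 1.55 FPKM (5.57), and the adenylyl cyclase gene ADCY6 rose by 0.52, a call lost in 9 of 13 alternative fits, 4 of which left out a library (Empty replicate 2 or 3, LINC00862 replicate 1 or 2), with adjusted p up to 0.258.

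The flotillins and other raft proteins, which form membrane domains without caveolins, had 4 of 10 tested genes lower, 3 higher and a median log2 fold change of 0.01. Its called share was 70.0%, near the 64.2% of all tested genes. FLOT1 was at 43.6 ± 7.04 FPKM in Empty and 45.1 ± 4.63 in LINC00862 (SD, n = 3 each) and did not pass the test (adjusted p = 0.322 from edgeR), while FLOT2 fell by 1.53 on the log2 scale. MAL2, a raft protein of apical transport, rose from 0.406 to 96.9 FPKM (log2 fold change 8.06). PHB, the older symbol of PHB1 in the deposited table, and STOML2 are mitochondrial scaffold genes and fell by 1.05 and 1.00, and ERLIN1, of the endoplasmic reticulum, fell by 2.02.

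The clathrin coat, which forms the other main endocytic pit, had 12 of 16 tested genes lower and 1 higher, with a median log2 fold change of -0.94, against 29.8% lower and 34.4% higher among all tested genes. The adaptor subunits AP2M1 and AP2S1 fell by 1.88 and 1.18 on the log2 scale and the light chain CLTA by 1.77. The largest fall of this list was that of the dynamin gene DNM1, at -3.20, and FCHO1, an early coat factor, rose from 0.0402 to 0.602 FPKM (4.01). Each of the 4 largest falls among the caveolins, cavins and EHD2 exceeded the largest fall of the clathrin list in fitted size.

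The called share was 100% for the tested hepatocyte markers, 37.5% for fibroblast and stellate markers and 16.7% for endothelial markers. Over all tested genes it was 64.2%. Of 8 hepatocyte markers 7 were tested, and 6 of them were higher and 1 (SERPINA1) was lower in LINC00862. Albumin (ALB) was at 0.00780 FPKM on average in Empty and TTR had 0 counts in each Empty library. FGB and SERPINA1 were present at a low level in Empty, with means of 1.75 and 1.29 FPKM, and in LINC00862 FGB had 550.4 FPKM and SERPINA1 0.0950 FPKM. Of 8 fibroblast and stellate markers, 2 were higher (COL1A1 and LUM), 1 was lower (PDGFRB, from 3.63 to 0.0538 FPKM) and 5 did not pass the test. Their summed level was 7.60 to 8.86 FPKM in Empty and 11.9 to 15.8 FPKM in LINC00862. The rise of this sum came from COL1A1, with a mean of 2.43 FPKM in Empty and 10.6 FPKM in LINC00862. Of 6 tested endothelial markers, CDH5 was higher (mean 0.403 FPKM in Empty and 4.47 FPKM in LINC00862) and 5 did not pass the test. The summed level of the 8 listed was 1.40 to 1.97 FPKM in Empty and 4.58 to 6.03 FPKM in LINC00862. This rise came from CDH5. The 8 muscle markers summed to at most 1.11 FPKM in any library. Of the 2 tested, TNNT2 was lower in LINC00862 (log2 fold change -1.18) and MYH11 did not pass the test. The mean of TNNT2 was 0.644 FPKM in Empty and 0.251 FPKM in LINC00862. Too sparse to be tested, CKM had 0 counts in Empty and DES, CNN1, MYOD1 and MYOG had 0 counts in LINC00862. The 2 adipocyte markers listed summed to at most 0.143 FPKM. The part of these differences in the values of the caveola genes was not tested.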

How the data were processed

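RNA of 6 HCCLM3 libraries, 3 per group, was analysed from the table of counts and FPKM that the authors deposited. The deposited count is the number of reads per gene without normalization, and the deposited FPKM was scaled by the authors for transcript length and mapped fragments. The submitters' processing notes name cutadapt 1.9, HISAT2 2.0.4, UMI-tools, StringTie 1.3.4d, DESeq2, edgeR and hg38, without their roles. Libraries were made with a strand-specific dUTP protocol, and the annotation and the strand setting of the counting are not given in the sources used here.

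All genes kept by filterByExpr (20741) were fitted with edgeR 4.0.16 in R 4.3.3 (TMM, quasi-likelihood test, Benjamini-Hochberg adjustment over all tested genes, threshold 0.05). Standard errors came from the test statistic. Single FPKM values and ratios were compared by exact two-sided permutation tests (SciPy 1.17.1). The code was run on simulated counts in which few genes changed. That run does not show how the scaling behaves where 64.2% of genes were called, as here. The 7 genes and the gene lists were chosen with earlier results of these data known. Genes named from a list had an adjusted p under 0.05 and either the 3 highest mean FPKM or the 2 largest fold changes, and FLOT1, FLOT2, DNM2, CAVIN4 and single cell type markers were named after their values were seen. Sequences came from RefSeq, and no protein sequences were used. The alternatives were DESeq2 1.42.0, other scalings, a replicate block, no filter, limma-trend (limma 3.58.1) on log2(FPKM + 1) and log2(FPKM + 0.1), leaving out each library, a threshold of 0.01 and a test against a fold change of 2.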

Additional observations from a re-analysis of the deposited data

How the results depend on the processing

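CAV1, CAV2, CAVIN1, CAVIN3 and EHD2 were lower with an adjusted p under 0.05 in each of 13 alternative fits. The count of 5 lower and 0 higher members was the same in those fits, at a threshold of 0.01 and in edgeR's test against a fold change of 2. Of all tested genes, 16.9% (no filter) to 33.7% (limma-trend on log2(FPKM + 0.1)) were called lower in the 13 fits. At 0.01, 52.4% were called in either direction, and 15.4% were called lower against a fold change of 2. CAVIN2 changed sign, to 0.017 with DESeq2 and 0.19 with upper quartile scaling, and lay between -0.14 and 0.12 when a library was left out, always without a call. Over all tested genes the median log2 fold change was 0.11 under TMM, 0.32 under the upper quartile and -0.05 under library size alone, so CAVIN2 under upper quartile scaling lay below that median. limma-trend on log2(FPKM + 1) moved CAV2 to -3.21. In the list on CAV1 phosphorylation and turnover, the 1 higher gene was lost (0) with library size only and with limma-trend at both pseudocounts, and the count lay between 0 and 1 when a library was left out. It was lost without Empty replicate 2, Empty replicate 3, LINC00862 replicate 1 and LINC00862 replicate 2. In the clathrin list, the number of higher genes lay between 1 and 2, with 2 without Empty replicate 3. Of the neighbours, 6 rather than 10 were higher with limma-trend on log2(FPKM + 1). By Pearson correlation, 0 of the 3 genes nearest to CAV1 and 0 of the 3 nearest to CAVIN1 were the same. DNM2 turned to 0.11 with upper quartile scaling, without a call. Of 45 named genes that are not members and were followed over the alternatives, 37 kept their direction and call in all 13 alternative fits. The others besides DNM2 were MET, YES1, UBXN6, ADCY6, ATP6V0A1, BICRA and STAT3, and STAT3 lost its call with library size only (adjusted p = 0.0515) and with limma-trend at both pseudocounts. The cause was not tested. Of 914 alternative values, 848 kept their direction and side of the threshold or, for counts, lay within 1.5 times.

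Replicate numbers showed no sign of a pairing, although neither the labels nor the methods say whether same-numbered libraries were prepared together. Libraries with the same number deviated from their groups with correlations of -0.034, -0.016 and -0.0022 across genes, and 0 of 6 libraries correlated best with their own number. With a replicate block, 12098 genes were called in place of 13321, the members remained at 5 lower and 0 higher, and CAV1 was at -6.10. Counting depth limits CAV3, which had 0 to 7 counts in Empty and 0 in each LINC00862 library. CAVIN2-AS1 was at 0 in Empty against 88 to 130 counts in LINC00862, so only the size of its fold cannot be given.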

Other observations

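All 7 genes carry the GO term caveola in the deposited table, as do 66 other genes, a group looked at after the data were seen. Of these, 56 were tested, and 29 were lower, 14 were higher and 13 did not pass edgeR's test, with a median log2 fold change of -0.94 beside 0.11 over all tested genes. The called share was 76.8%, beside 64.2% of all tested genes (29.8% lower and 34.4% higher). Over the same 13 alternative fits, also added after the data were seen, 29 to 30 were lower and 12 to 15 were higher. The thrombin receptor gene F2R fell from 40.3 to 0.241 FPKM (log2 fold change -7.17, standard error 0.36), and CDH13, an adhesion receptor gene without a transmembrane part, fell from 3.63 to 0.0384 FPKM (-6.34, standard error 0.22). The TGF-beta receptor gene TGFBR2 fell by 1.91 on the log2 scale and MYOF, a membrane repair gene, by 1.51. PTGS2, the inducible cyclooxygenase gene, rose from 0.361 to 52.8 FPKM (7.35, standard error 0.37), and ATP1B1, a sodium pump subunit gene, rose from 27.1 to 261.8 FPKM (3.45, standard error 0.16). These 6 genes were chosen after their values were seen.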
